A study of Mus musculus with 6 samples.

Results

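The transfer RNAs for aspartate and for serine with the anticodon TGA are encoded side by side on the mouse mitochondrial genome, on opposite strands, by the genes mt-Td and mt-Ts1. Their tRNA-derived fragments (tRFs) were taken from the deposited table of tRFs called decreased in islets of *db/db* mice, as the rows whose host is a mitochondrial tRNA (mt-tRNA) with AspGTC or SerTGA. These were 10 of the 170 listed tRFs, 9 from mt-Td and 1 from mt-Ts1. The table was made with the comparison of *db/db* and *db/+* islets, so the decrease of these fragments is given as a description and its tests are no independent evidence for it. Fragments of both tRNAs outside this list were not analysed here.

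Islets of 3 *db/db* mice and 3 *db/+* controls were used, and the small RNAs of each mouse were sequenced as 1 library. All mice were males of 16 weeks on chow diet. The *db/db* mice (labelled BKS(D)-Leprdb/JOrlRj) lack the long, signalling form of the leptin receptor in every tissue. They are named pre-diabetic in the labels, whereas the study's text calls them diabetic and describes obesity and raised fasting glucose at this age. The controls (labelled BKS(D)-Leprdb/+/JorlRj) are heterozygous for the same allele. The labels and the study's methods name different colonies for mice of this age. The RNA was freed of some base methylations and of chemical groups that block adaptors before the libraries were made. The table holds no marker of any cell type, so the makeup of the islets could not be checked, and fewer cells of a type and less RNA per cell cannot be told apart. Levels are normalized reads, the raw reads divided by the size factor of each library, which was solved from the reads and the deposited mean level. In the order of replicates 1, 2 and 3 these factors were 1.68, 1.59 and 0.668 in *db/+* and 0.509, 1.01 and 1.20 in *db/db* libraries. The levels of *db/+* replicate 3 are thus raised by its low factor relative to those of the other controls. Values of the libraries of a group are given in the order of replicates 1, 2 and 3, numbers that name a mouse and do not pair the groups. The 10 fragments together had 1564, 1441 and 1337 raw reads in the controls. In *db/db* mice they had 33, 294 and 317. The *db/db* replicate 1 was thus read at far lower counts than the others, and *db/+* replicate 3 stood apart in its mix of fragments, as described below.

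Both strands of mitochondrial DNA are transcribed into long RNAs that carry many genes. The tRNAs lie between the others and are cut out by RNase P at their 5′ end and by RNase Z at their 3′ end, after which an enzyme adds the bases CCA to the 3′ end. The tRNA of mt-Td reads the codons for aspartate, and that of mt-Ts1 reads the serine codons that begin with UC, in the translation of the respiratory chain subunits made inside the organelle.

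In GRCm38, mt-Ts1 spans 6870 to 6938 of chromosome M on the minus strand, and mt-Td spans 6942 to 7011 on the plus strand. The 5′ ends of the tRNAs face each other across 3 bases. On the other side mt-Ts1 shares its last 3 bases with the end of mt-Co1, read from the opposite strand, and mt-Td ends 1 base before mt-Co2. Both neighbours encode subunits of cytochrome c oxidase. The tRNA of mt-Td has 70 bases before the CCA and that of mt-Ts1 has 69, and G and C make up 17.1% of the first and 37.7% of the second. The sequences of both tRNAs are shown as written in GENCODE, 5′ to 3′ with the anticodon in capitals, since the fragment ends below are counted along them.
mt-Td: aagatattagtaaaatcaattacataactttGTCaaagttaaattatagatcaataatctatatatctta
mt-Ts1: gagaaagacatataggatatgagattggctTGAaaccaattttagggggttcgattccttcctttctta

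All 10 fragments matched these sequences exactly, with CCA added, and the table gives each of them a single possible host. Of the 9 fragments of mt-tRNA-Asp, 7 began at base 1 and 2 ended in CCA. The authors label the latter pair internal, but with the CCA they reach the mature 3′ end, and they are called 3′ fragments here. The 5′ fragments were 34, 39, 40, 45, 52, 53 and 55 nt long and the 3′ fragments 46 and 52 nt. They are defined by 9 different cut sites. That of the 34-nt fragment lies in the anticodon loop, directly behind the anticodon at bases 32 to 34. The sites of the 39-nt and 40-nt fragments lie in the 3′ side of the anticodon stem, and that of the 45-nt fragment lies where the variable region (bases 42 to 45) meets the T stem. The sites of the fragments of 52, 53 and 55 nt lie in the T loop (bases 51 to 57). The 3′ fragment of 52 nt starts at base 22 in the D stem and that of 46 nt at base 28 in the anticodon stem. Bases 28 to 34, and with them the whole anticodon, are thus shared by all 9 fragments, and no listed pair makes up the tRNA from complementary pieces. The arms were assigned by base pairing of the sequence.

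The only listed fragment of mt-tRNA-Ser(TGA) was a 5′ fragment of 32 nt (6907 to 6938, minus strand). It ends inside the anticodon at bases 31 to 33, so that the first and second anticodon bases stay with the fragment and the third is lost. The fragments with the highest levels, the scarce 53-nt fragment between them, that of 45 nt, both 3′ fragments and the serine fragment are shown for their ends, with the anticodon bases and the added CCA in capitals.
Asp 5′ 55 nt: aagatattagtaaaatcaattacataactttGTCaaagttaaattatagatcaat
Asp 5′ 53 nt: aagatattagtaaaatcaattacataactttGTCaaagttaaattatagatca
Asp 5′ 52 nt: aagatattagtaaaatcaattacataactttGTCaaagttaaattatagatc
Asp 5′ 45 nt: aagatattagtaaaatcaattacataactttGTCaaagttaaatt
Asp 5′ 40 nt: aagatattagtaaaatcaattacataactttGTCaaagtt
Asp 3′ 52 nt: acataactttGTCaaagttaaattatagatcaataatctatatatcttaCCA
Asp 3′ 46 nt: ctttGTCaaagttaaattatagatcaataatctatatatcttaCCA
Ser 5′ 32 nt: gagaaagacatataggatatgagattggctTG

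**Figure D1:**
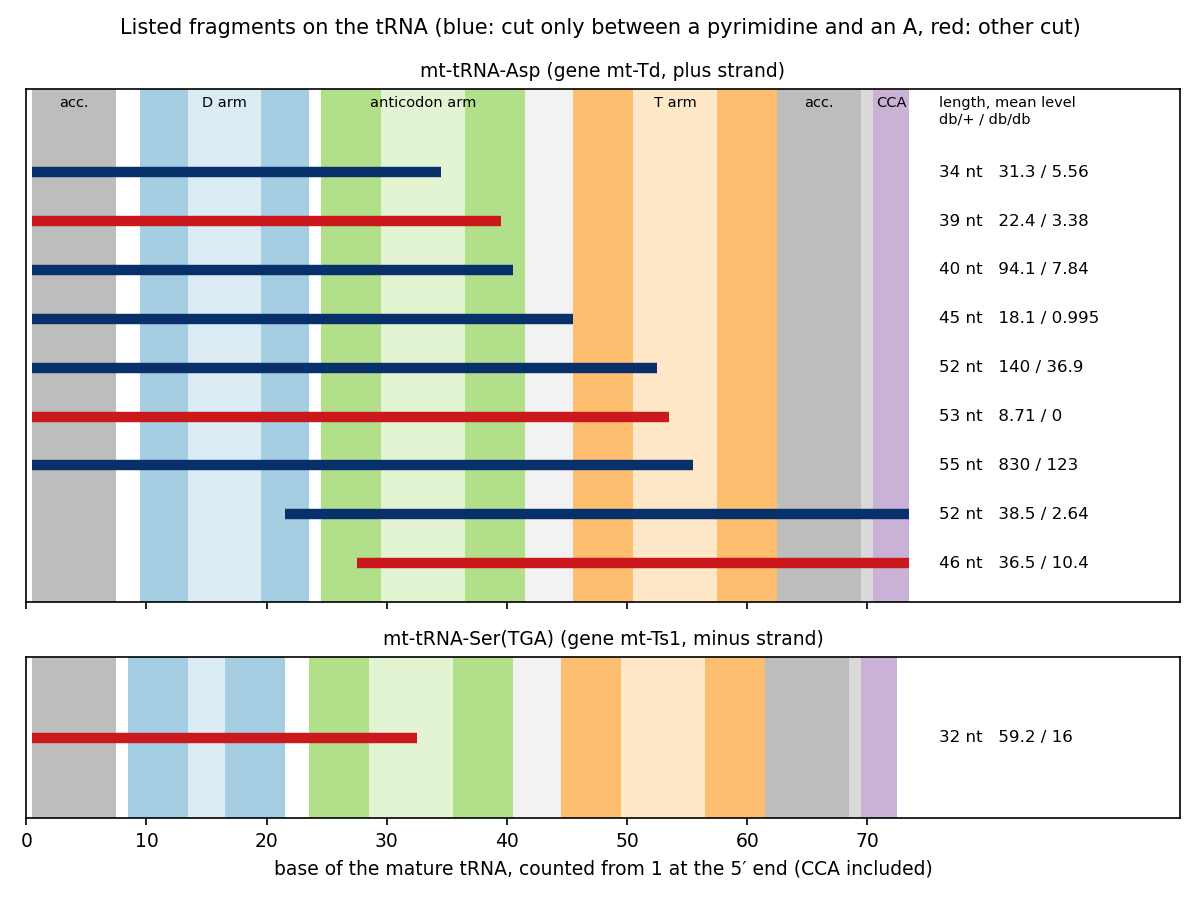
Position of the 10 listed fragments on the mature tRNAs, in bases counted from the 5′ end with CCA included, with the arms shaded and the mean level (normalized reads, n = 3 per group) in *db/+* and *db/db* islets at the right. Bars are blue where every internal cut lies between a pyrimidine and an A and red otherwise, and 7 of the 9 fragments of mt-tRNA-Asp start at base 1.

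The 5′ fragment of 55 nt was the leading product of mt-tRNA-Asp. It lies at 6942 to 6996 of chromosome M and ranked 5th by mean level among the 147 listed fragments of mt-tRNAs. It had 948, 900 and 909 raw reads in *db/+* mice and 18, 174 and 194 in *db/db* mice. The levels were 565, 565 and 1361 normalized reads in *db/+* and 35.4, 173 and 161 in *db/db* mice. The highest *db/db* library was thus below the lowest *db/+* library, *db/+* replicate 3 was the highest and *db/db* replicate 1 the lowest of the 6. The means were 830.0 ± 459.5 and 123 ± 76.4 (SD, n = 3 each), and edgeR's quasi-likelihood test gave a log2 fold change of -2.74 (SE 0.83, adjusted p = 0.00856 over the 170 tRFs). Without *db/+* replicate 3 it was -2.18.

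The 5′ fragment of 52 nt, 3 bases shorter, was the next in level. It had 123, 77.2 and 220.0 normalized reads in *db/+* mice and 7.86, 59.7 and 43.2 in *db/db* mice. The groups did not overlap, but the lowest *db/+* library (77.2) was close to the highest *db/db* library (59.7). The log2 fold change was -1.89 (SE 0.77, adjusted p = 0.0311 from edgeR). It did not pass without *db/db* replicate 1 (-1.44, adjusted p = 0.0704) or *db/db* replicate 3 (-2.01, adjusted p = 0.0648). For each normalized read of this fragment there were 4.58, 7.32 and 6.18 reads of the 55-nt fragment in *db/+* mice and 4.50, 2.90 and 3.73 in *db/db* mice. This ratio, chosen after its values were seen and not tested, was lower in each *db/db* library, with *db/db* replicate 1 just below the lowest *db/+* library and resting on 4 reads of the 52-nt fragment.

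The 5′ fragment of 40 nt, which ends 1 base before the last base of the anticodon stem, followed in level. It had 50.03, 52.7 and 179.6 normalized reads in *db/+* mice and 3.93, 12.9 and 6.65 in *db/db* mice. The groups lay far apart, and *db/+* replicate 3 was the highest library. Its log2 fold change was -3.50 (SE 0.75, adjusted p = 0.00414 from edgeR), and -2.62 without *db/+* replicate 3. The fragment of 39 nt, which differs from it by its last base alone, had 32.8, 27.0 and 7.48 normalized reads in *db/+* and 0, 5.97 and 4.16 in *db/db* mice. Here *db/+* replicate 3 was the lowest of its group and close to the highest *db/db* library, whereas for the 40-nt fragment it was the highest. The log2 fold change of the 39-nt fragment was -2.56 (SE 0.74, adjusted p = 0.00720 from edgeR).

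The scarcest fragment was that of 53 nt, which ends between the cuts of the abundant fragments of 52 and 55 nt. It had 18, 15 and 4 raw reads in *db/+* libraries and none in any *db/db* library. Its mean in *db/+* islets was 8.71 ± 2.44 normalized reads (SD, n = 3), and against a floor of 3 reads over the *db/db* group it was at least 7.89-fold lower. The bound was 4.97-fold without *db/db* replicate 2 and 4.39-fold without *db/db* replicate 3, and it covers counting error only. Of the 5′ fragments of mt-tRNA-Asp this was also the one with the lowest level in *db/+* islets, so that its absence from *db/db* libraries stands at the limit of what these counts can show.

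The 34-nt fragment, cut behind the anticodon, was nearly level among the *db/db* mice. It had 25.6, 22.0 and 46.4 normalized reads in *db/+* and 5.89, 4.98 and 5.82 in *db/db* mice, and its log2 fold change was -2.45 (SE 0.54, adjusted p = 0.00425 from edgeR). These *db/db* values rest on 3, 5 and 7 raw reads. The 45-nt fragment had 12, 13 and 26 raw reads in *db/+* mice and 0, 3 and 0 in *db/db* mice. Its reads in the *db/db* group thus came from a single mouse, and its log2 fold change of -3.80 (SE 1.09, adjusted p = 0.00703 from edgeR) was -2.68 without *db/+* replicate 3, -3.09 without *db/db* replicate 3 and, with no read left in the group, has no fixed size without *db/db* replicate 2.

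The 3′ fragments of mt-tRNA-Asp overlap each other from base 28 to the CCA. That of 52 nt (6963 to 7011 and CCA) had 19.7, 19.5 and 76.3 normalized reads in *db/+* and 1.96, 5.97 and 0 in *db/db* mice, with a log2 fold change of -3.77 (SE 0.91, adjusted p = 0.00445 from edgeR). This was -2.86 without *db/+* replicate 3, -3.07 without *db/db* replicate 3 and -5.66 without *db/db* replicate 2. The *db/db* values of this fragment rest on 1, 6 and 0 raw reads, so its change without *db/db* replicate 2 rests on 1 read and its size is not fixed. That of 46 nt (6969 to 7011 and CCA) had 42.3, 43.3 and 24.0 normalized reads in *db/+* and 5.89, 11.9 and 13.3 in *db/db* mice. Its log2 fold change was -1.76 (SE 0.51, adjusted p = 0.00729 from edgeR), which lies within 1 SE of those of the serine fragment and of the 5′ fragment of 52 nt. As for the pair of 39 and 40 nt, *db/+* replicate 3 was the highest library for one 3′ fragment and the lowest *db/+* library for the other. The difference in fold change within these pairs was not tested.

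The 5′ fragment of mt-tRNA-Ser(TGA) had 93, 128 and 28 raw reads in *db/+* mice and 2, 15 and 35 in *db/db* mice. The levels were 55.4, 80.3 and 41.9 normalized reads in *db/+* and 3.93, 14.9 and 29.1 in *db/db* mice. The groups did not overlap, and the *db/db* mice were spread over a wider range, relative to their level, than the controls. The means were 59.2 ± 19.5 and 16.0 ± 12.6 (SD, n = 3 each). The log2 fold change was -1.82 (SE 0.64, adjusted p = 0.0172 from edgeR), and it was -2.55 without *db/db* replicate 3 and did not pass without *db/db* replicate 2 (-1.75, adjusted p = 0.0601).

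**Figure D2:**
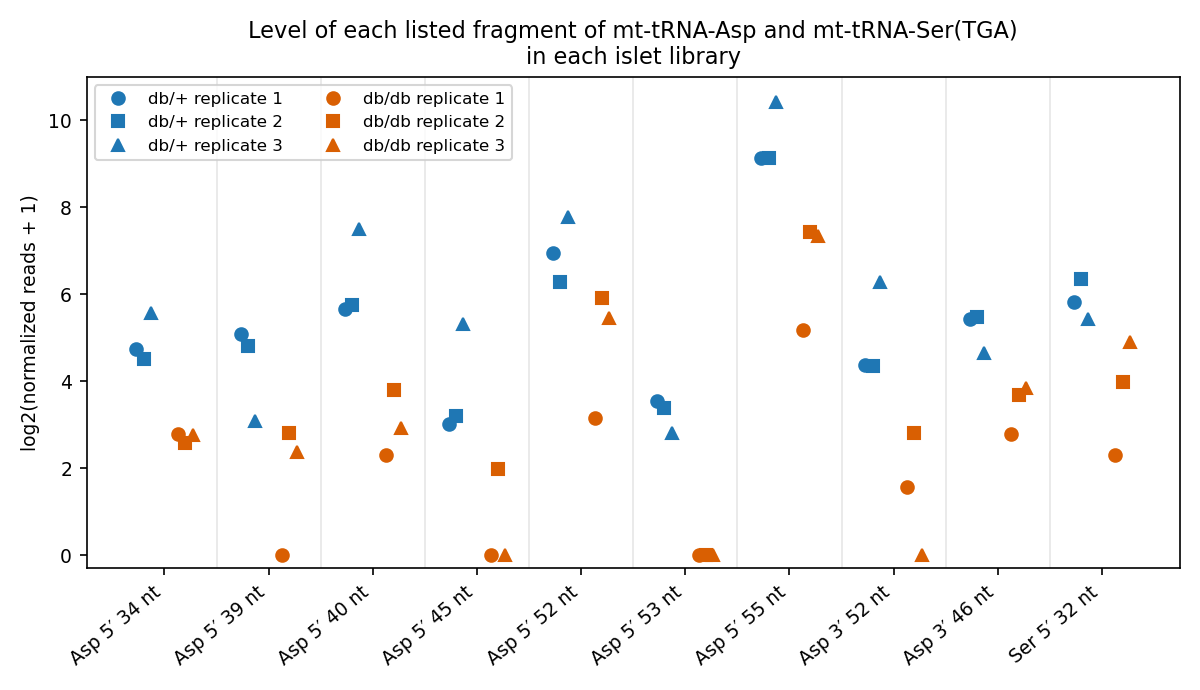
Level of each of the 10 fragments in each of the 6 libraries, as log2(normalized reads + 1), with *db/+* in blue and *db/db* in orange and 1 symbol per replicate number, which names a mouse of its group only. In each fragment the *db/db* points lie below the *db/+* points, and *db/+* replicate 3 (blue triangle) is the highest *db/+* library in 6 fragments and the lowest in 4.

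In all, 10 of the 10 fragments passed edgeR's test (2-fold lower or more, with an adjusted p no higher than 0.05), against 97.6% of all listed tRFs. The groups did not overlap in 10 of the 10, against 94.7% of all listed tRFs. Both shares follow from how the list was made. The median log2 fold change was -2.65 over the 10 fragments and -2.42 over the 170 listed tRFs, and both medians were the same with tRFs without a *db/db* read set to their bound. The mean level in *db/+* islets was 8.71 normalized reads for the scarcest and 830.0 for the leading fragment. When libraries were instead scaled to the nuclear tRFs of the list, themselves listed as decreased, 0 of the 10 fragments passed edgeR's test, against 1.18% of all listed tRFs. On that scale 3 of the 10 had an unadjusted p under 0.05, and their log2 fold changes were all still below 0.

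The cut sites of the 10 fragments fell into those between a pyrimidine and an adenine and all others. Such joints are known as the weakest in single-stranded RNA and as preferred sites of enzymes of the RNase A family. They make up 17 of the 69 joints (24.6%) of mt-tRNA-Asp and 7 of the 68 (10.3%) of mt-tRNA-Ser(TGA). Of the 9 fragments of mt-tRNA-Asp, 6 were cut only at such joints, namely the 5′ fragments of 34, 40, 45, 52 and 55 nt and the 3′ fragment of 52 nt. The 5′ fragments of 39 and 53 nt, the 3′ fragment of 46 nt and the serine fragment, which is cut between G and A, were not.

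This division matched the behaviour of *db/+* replicate 3. Relative to the mean of *db/+* replicates 1 and 2, all 6 fragments cut at pyrimidine-A joints were higher in it, by 1.95-fold for the 34-nt fragment to 5.09-fold for the 45-nt fragment. All 4 others had a lower level, from 0.251 of that mean for the 39-nt fragment to 0.618 for the serine fragment. Whether a fragment counts as higher or lower here rests on the size factor of that library, 0.668 against 1.68 and 1.59. In raw reads the *db/+* mice had 948, 900 and 909 of the 55-nt fragment and 43, 35 and 31 of the 34-nt fragment. The order of the fragments by this ratio does not depend on the factor of replicate 3. Among the other listed fragments of mt-tRNAs with an exact match, 38 of the 41 with pyrimidine-A cuts and 11 of the 82 with other cuts were higher in that mouse. The median ratio was 3.51 for the former and 0.597 for the latter. These are levels of 1 library and carry no test, and what cut the RNA was not tested. The log2 fold changes between groups moved with that library accordingly. Without *db/+* replicate 3, those of the 6 fragments came closer to 0 (-2.86 to -1.39 in place of -3.80 to -1.89), and those of the 4 others, as fitted, moved away from 0. The share of mt-Td reads in fragments cut only at pyrimidine-A joints was 90.2%, 90.3% and 98.1% in *db/+* mice. In *db/db* mice it was 90.3%, 93.5% and 92.6%. The groups overlapped, with a difference of -0.735 percentage points between *db/db* and *db/+* (exact permutation test, two-sided p = 0.9, n = 3 each), which was 1.87 without *db/+* replicate 3.

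**Figure D3:**
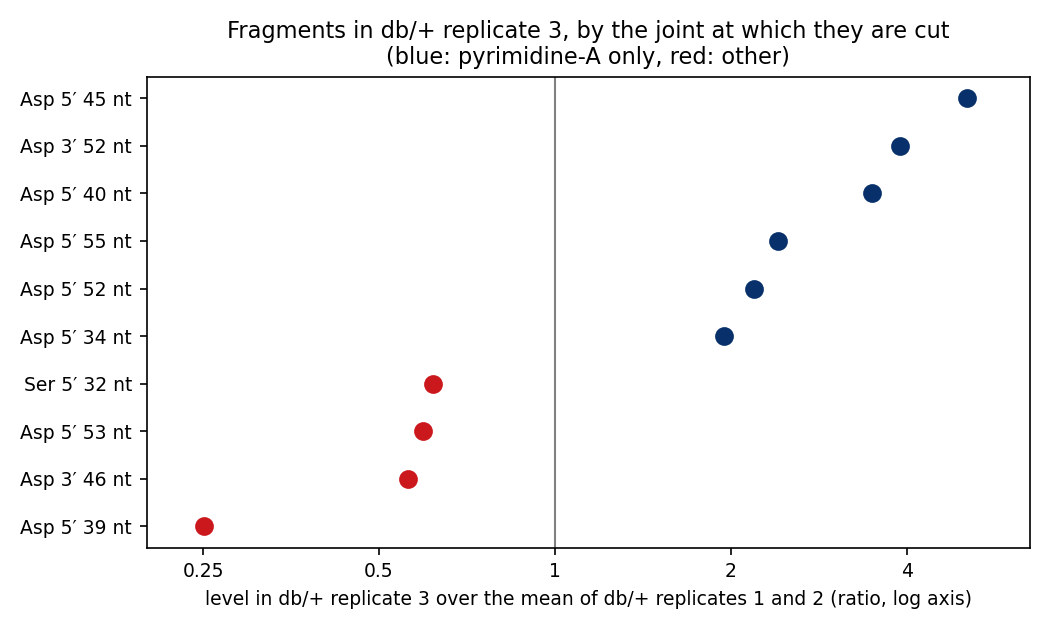
Level of each of the 10 fragments in *db/+* replicate 3 divided by its mean in *db/+* replicates 1 and 2, on a log axis, with blue for fragments whose internal cuts are all pyrimidine-A joints and red for the others. The 6 blue points lie between 1.95 and 5.09 and the 4 red points between 0.251 and 0.618.

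Within mt-tRNA-Asp the share of the leading fragment, the mean length and the share of T-loop ends overlapped between the groups, unlike the ratio of the 55-nt to the 52-nt fragment given above. The 55-nt fragment took 64.4%, 68.5% and 69.4% of the listed mt-Td reads in *db/+* mice and 58.1%, 62.4% and 68.8% in *db/db* mice. The 95% Wilson interval of the lowest share, from 31 reads in *db/db* replicate 1, ran from 40.8% to 73.6% and thus covers all other libraries. The means were 67.5% ± 2.66 and 63.1% ± 5.399 (SD, n = 3 each), with overlapping groups (exact permutation test, two-sided p = 0.3). The read-weighted mean length was 52.1 ± 0.205 nt in *db/+* and 51.9 ± 1.11 nt in *db/db* islets (SD, n = 3 each; exact permutation test, two-sided p = 1). The fragments ending in the T loop, those of 52, 53 and 55 nt, took 79.1% to 81.0% of the reads in *db/+* and 71.0%, 83.9% and 87.2% in *db/db* mice (exact permutation test, two-sided p = 1, n = 3 each). In the mean length and the T-loop share the overlap came from *db/db* replicate 1 alone, with its 31 reads. Without that library *db/db* mice were higher in both, by 0.47 nt and 5.63 percentage points, so these tests do not show that the groups were alike. The smallest p that 3 against 3 allow is 0.1.

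The strands were contrasted through the sums of each tRNA. The summed level of the mt-Td fragments was 876, 824 and 1959 normalized reads in *db/+* and 60.9, 278 and 234 in *db/db* mice. In *db/+* replicate 3 the sum was more than double that of the other controls, and in *db/db* replicate 1 it was the lowest of all. The raw mt-Td reads of the *db/+* mice were 1471, 1313 and 1309, so the high sum of replicate 3 came with its low size factor. The log2 fold change was -2.82 (SE 0.67, adjusted p = 0.00819, limma on log2(sum + 1) over 29 parent tRNAs), and it was -2.13 without *db/db* replicate 1. For the single fragment of mt-Ts1 the same fit gave -2.13 (SE 0.68, adjusted p = 0.0200). It was -1.41 without *db/db* replicate 1 and -2.71 without *db/db* replicate 3, and did not pass without *db/+* replicate 1 (-2.15, adjusted p = 0.0507) or *db/+* replicate 2 (-1.88, adjusted p = 0.0557). All 29 parents passed this test (100%), as the list was made for a decrease.

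The plus-strand tRNA gave far more listed reads than the minus-strand tRNA in every library. This sets 9 listed fragments against 1, and fragments outside the list of decreased tRFs were not counted, so it is no measure of all fragments of each tRNA. The serine fragment took 5.95% (95% Wilson interval 4.88% to 7.23%), 8.88% (7.52% to 10.5%) and 2.09% (1.45% to 3.01%) of the reads of the 10 fragments in *db/+* mice. In *db/db* mice it took 6.06% (1.68% to 19.6%), 5.10% (3.12% to 8.25%) and 11.04% (8.05% to 15.0%). The share was thus lowest in *db/+* replicate 3 and highest in *db/db* replicate 3, and the groups overlapped. The log2 ratio of the mt-Ts1 to the mt-Td sum was -4.27 ± 1.12 in *db/+* and -3.58 ± 0.58 in *db/db* islets (SD, n = 3 each). The groups overlapped in this ratio. The difference was 0.69 (exact permutation test, two-sided p = 0.5), and it was 0.07 without *db/+* replicate 3. With 3 mice per group this test cannot give a p below 0.1, so it cannot decide whether the change differs between the strands for this pair of genes.

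Over the whole list, 7 minus-strand mt-tRNAs had 31 listed fragments and 12 plus-strand mt-tRNAs had 116. The median summed level in *db/+* islets was 186 normalized reads for the former and 1087 for the latter. By this level mt-Td ranked 6th and mt-Ts1 17th of the 19. The median log2 fold change of the sums was -2.36 on the minus strand (-3.17 for mt-Tq to -2.01 for mt-Te) and -2.38 on the plus strand (-3.35 for mt-Tl1 to -1.69 for mt-Tl2). The median log2 sum of minus-strand tRNAs minus that of plus-strand tRNAs was -2.31 ± 0.40 in *db/+* and -2.28 ± 0.54 in *db/db* islets (SD, n = 3 each), a difference of 0.03 (exact permutation test, two-sided p = 1). The difference was -0.19 without *db/+* replicate 3 and -0.28 without *db/db* replicate 1. Besides mt-Tq and mt-Te, the other minus-strand genes with listed fragments, mt-Ta, mt-Tn, mt-Tc and mt-Tp, had log2 fold changes of -2.60, -2.33, -2.36 and -2.89. The plus-strand neighbours of the pair, mt-Tk behind mt-Co2 and mt-Tw ahead of mt-Co1, had -2.80 and -2.17.

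**Figure D4:**
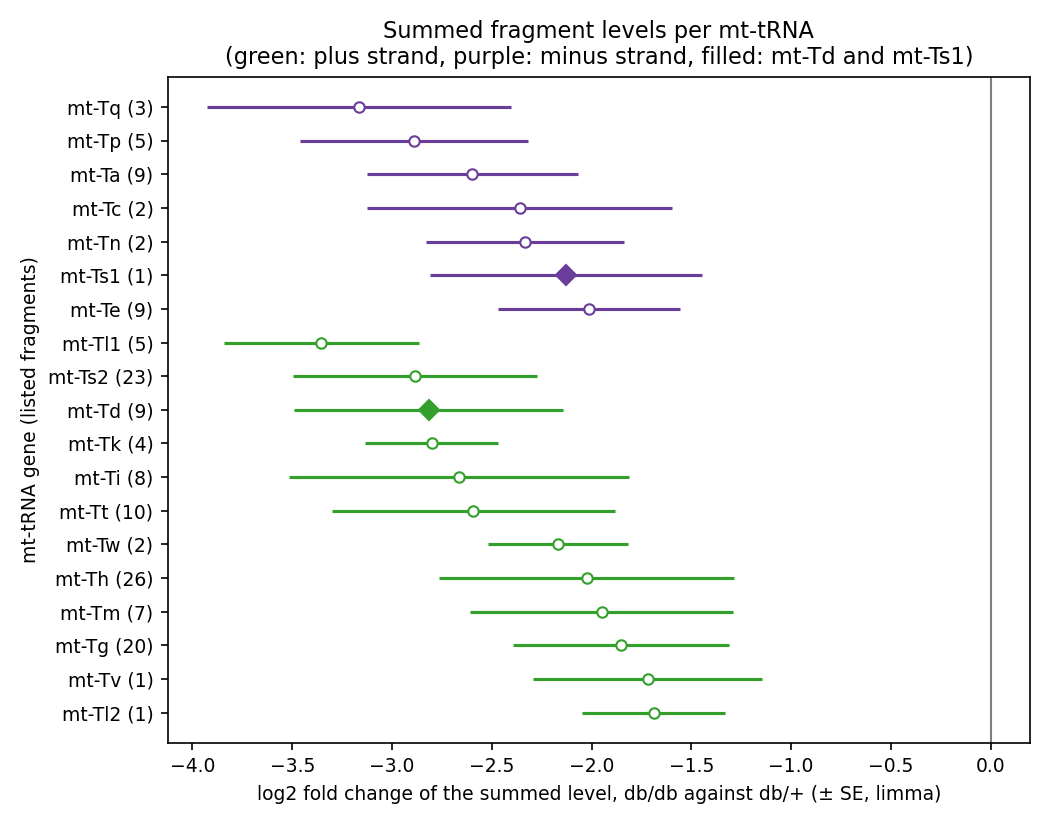
Log2 fold change of the summed fragment level in *db/db* against *db/+* islets for each of the 19 mt-tRNAs with listed fragments (limma, bars are the SE, the number of listed fragments in brackets), with plus-strand genes in green, minus-strand genes in purple and mt-Td and mt-Ts1 filled. Sums of both strands span like ranges, with mt-Td at -2.82 and mt-Ts1 at -2.13.

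Within the listed reads of mt-tRNAs, the 10 fragments took a smaller share in each *db/db* library than in any *db/+* library. They made up 8.14%, 5.66% and 5.73% of these reads in *db/+* mice and 3.14%, 5.19% and 5.399% in *db/db* mice. The gap to the lowest *db/+* library was small for *db/db* replicates 2 and 3. The log2 ratio of their summed level to that of the other listed mt-tRFs was -3.86 ± 0.32 in *db/+* and -4.41 ± 0.44 in *db/db* islets (SD, n = 3 each). The difference of -0.55 had the smallest p that 3 against 3 allow (exact permutation test, two-sided p = 0.1, and 0.7 adjusted over 7 such tests). It was -0.36 without *db/+* replicate 1 and -0.29 without *db/db* replicate 1.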

How the data were processed

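The authors made small-RNA libraries with the rtStar pretreatment and QIAseq miRNA kits, took tRNA sequences from mitotRNAdb, GtRNAdb and tRNAscan-SE, and kept tRFs with 2 or more reads. The submitters' processing notes name FastQC. Not given in the sources used here are the aligner, the build and any collapse by molecular identifier. The deposited table holds raw counts per tRF and library and the authors' mean signal over the 6 libraries after DESeq2 scaling. The authors' log2 fold changes with their errors, their test score and their p-values stand beside them and were not used.

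Size factors were solved by least squares from counts and mean level (largest relative misfit 9.38e-15). The main scaling was not computed from the list, which does not give the libraries' depth. Every tRF was tested with edgeR 4.0.16 (R 4.3.3), without filter or covariate and with Benjamini-Hochberg adjustment over all 170 tRFs. Sums per parent tRNA were tested with limma 3.58.1 with trend on log2(sum + 1), adjusted over 29 parents. Ratios and shares were compared by exact permutation. On simulated counts for the 170 tRFs, edgeR called a log2 change of -3 in 85.2% and one of -2 in 55.5%. It called one of -1 in 8.00% and no change in 0.727%. These rates rest on 400 simulated tRFs for each size of change and 2200 without change. Most simulated tRFs were thus unchanged, whereas 97.6% of the listed tRFs passed the test here. The adjusted p depends on that share, so these rates are not those of the test on the list. Sequences and positions came from GENCODE M21 (GRCm38) by exact match. Python 3.11.15, NumPy 2.4.6, pandas 2.3.3, SciPy 1.17.1 and matplotlib 3.10.9 were used.

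The members, lists and tests were chosen with earlier results of these data known. Every fragment of both tRNAs was named, with full values for the 3 most abundant and the largest and smallest fitted decrease of each tRNA. The largest fitted decrease belongs to the 53-nt fragment, which has no *db/db* read and only a bound, so it is not ranked by it. With a single listed fragment, mt-Ts1 has no mix of fragments, so the planned tests of its mean length and leading share had nothing to compare. Each group is 3 mice by the study's account. Intervals and floors cover counting error only.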

Additional observations from a re-analysis of the deposited data

How the results depend on the processing

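Of the 10 fragments, 10 passed by DESeq2 1.42.0 with the same factors (100% of all listed tRFs), 8 with a mean level of at least 10, which left 8 to test (97.4%), 7 with a decrease of at least 4-fold (76.5%) and 8 at an adjusted p of at most 0.01 (72.4%). Leaving out 1 library in turn, 9 to 10 passed (84.1% to 95.3%). With the nuclear tRFs of the list as the scale 0 passed (1.18%), and the sums of mt-Td and mt-Ts1 had log2 fold changes of -1.50 and -0.88 (adjusted p = 0.239 and 0.350 from limma). By its construction, a decrease common to nuclear and mitochondrial tRFs is lost on it. Without 1 library in turn, the sum of mt-Td ran from -3.22 to -2.13 and that of mt-Ts1 from -2.71 to -1.41. The log2 ratio of mt-Ts1 to mt-Td ran from 0.07 to 1.15 and that of both to the other mt-tRFs from -0.69 to -0.29. The difference between strands over the list ran from -0.28 to 0.21, the mean length from -0.56 to 0.47 nt, the share of the 55-nt fragment from -7.26 to -1.90 points, that of pyrimidine-A fragments from -2.07 to 1.87 points and that of T-loop ends from -2.51 to 5.63 points. The last 2 shares were added after the data were seen. Pseudocounts of 0.5 and 5, limma without trend and the filter on level changed no direction or call of these sums and ratios.

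With the replicate number as a block, 10 of the 10 fragments passed (94.7% of all listed tRFs), and the sums of mt-Td and mt-Ts1 were -2.82 and -2.13 (adjusted p = 2.72e-06 and 0.00143 from limma). The numbers do not pair the mice by any label, and the deviations of same-numbered mice correlated at 0.205, -0.258 and -0.225 across the 170 tRFs. The few reads in *db/db* replicate 1, 33 over the 10 fragments, limit what can be said of single fragments there.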
